A study of Mus musculus with 6 samples.

Results

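The mid/hindbrain class at days 8 and 10 of culture comprised 2781 cells of mouse neural tube organoids. These are the cells to which the authors' deposited annotation gives the class name Mid/hindbrain in the day 10 library (1035 of 3677 cells) and in the day 8 library (1746 of 3337 cells). The table that holds them has 11981 cells in 4 libraries, and the whole series has 16282 cells in 6 libraries. The class was made by the authors from the expression of these same cells, so its genes are described here without a test.

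The organoids are neuroepithelial tubes grown from 1 mouse embryonic stem cell line, Sox1::eGFP;Bra::mCherry, which carries fluorescent reporters of Sox1 and of Brachyury in all groups. Cells embedded in Matrigel received bFGF and activin-A for the first 3 days and N2B27 without them afterwards. On day 6 elongated organoids were moved singly into fresh drops of Matrigel and kept until day 10 or day 8. Each library pooled 100 organoids and was made with the 10x Genomics 3′ kit (v3). There was 1 library per day, so a difference between days cannot be told apart from a difference between libraries, and no test was possible.

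Cells of the early hindbrain are dividing neuroepithelial progenitors that line the lumen of the neural tube. Their position along the body axis is recorded by homeobox genes. Otx2 marks forebrain and midbrain, En1, En2 and Pax2 the border of midbrain and hindbrain, and Hox genes of rising group number mark ever more caudal hindbrain and then spinal cord. With time such progenitors take on radial glial features, and factors of the nuclear factor I family (Nfia, Nfib) come on as they approach the phase in which glia are made. A second timing system rests on Lin28 and Trim71, which are abundant early, and on the let-7 microRNAs, which bind the RNAs of both and are themselves held back by Lin28.

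The class libraries were deep. Cells of the class had a median of 25975 UMIs (unique molecular identifiers, 1 per captured RNA molecule) and 5077 genes at day 10, and 34760 UMIs and 5768 genes at day 8. Their UMIs summed to 29032033 at day 10 and 66763390 at day 8. The median share of mitochondrial UMIs was 5.40% at day 10 and 5.24% at day 8. The day 10 and day 8 libraries shared 3 cell barcodes, and 1 of them lay in the class in both. Levels are given in CPM, the summed UMIs of a gene per 1000000 UMIs of the class, with exact Poisson 95% intervals. Shares of cells have exact (Clopper-Pearson) 95% intervals. All intervals cover counting error only.

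The class took a smaller part of the organoids at day 10. It made up 28.1% of the cells at day 10 (26.7 to 29.6%) and 52.3% at day 8 (50.6 to 54.0%). At the earlier days it held most cells, with 2173 of 2402 at day 6 and 2108 of 2565 at day 7.

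The 4 markers of the class were detected at high levels at both days, though not only in it. Fabp7, a fatty acid binding protein of radial glia, measured 1731 CPM in the class at day 10 and 746 CPM in the other cells of that library. At day 8 it measured 1368 CPM in the class and 828 CPM in the other cells. Hes5, a Notch target that keeps progenitors undifferentiated, measured 217 against 60.8 CPM at day 10 and 185 against 117 CPM at day 8. The intermediate filament gene Nes measured 343 against 174 CPM at day 10 and 266 against 202 CPM at day 8. Vim, another intermediate filament, measured 1981 against 1188 CPM at day 10 but 1222 against 1430 CPM at day 8, so it did not set the class apart at day 8. Spinal cord cells, the class most like it, had more Fabp7 at day 10 (1897 CPM) and more Vim on both days (2084 CPM at day 10, 1668 CPM at day 8), and less Hes5 (183 and 136 CPM) and Nes (274 and 231 CPM). All 4 are genes of neural progenitors in general and do not mark a region.

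The regional genes went against the first part of the label. Otx2 measured 0.344 CPM at day 10 and 0.0150 CPM at day 8 in the class. The border genes En1, En2, Pax2, Pax5, Pax8, Fgf8 and Fgf17 measured at most 0.554 CPM on either day, and the forebrain genes Six3, Six6 and Nr2e1 were at 0 on both days. Among other forebrain genes Lhx2 measured 5.99 CPM at day 10 and 0.689 CPM at day 8, and Dlx2 5.03 and 0.165 CPM, both below the 20 CPM limit used for calls. Wnt1 alone of the 14 midbrain and isthmus genes passed 20 CPM (71.9 CPM at day 10, 31.3 CPM at day 8), and Wnt1 is also a gene of the dorsal midline along the whole neural tube. Of the 18 hindbrain genes some were present. Hoxa2 measured 98.5 CPM at day 10 (94.9 to 102) and 99.4 CPM at day 8 (97.1 to 102), and Epha4, an ephrin receptor patterned in hindbrain segments, 106 and 111 CPM. These genes did not set the class apart: Hoxa2 measured 108 CPM at day 10 and 102 CPM at day 8 in spinal cord cells, and 101 and 87.9 CPM in all other cells. Other hindbrain genes were low, with Egr2, a gene of alternate hindbrain segments, at 0.654 CPM at day 10 and 2.25 CPM at day 8, and Cyp26c1 at 0. None of the list was at least 2-fold higher in the class than in the other cells, and 5 of 12 tested at day 10 and 4 of 9 at day 8 were at least 2-fold lower. Over all tested genes 4.65% were higher and 8.09% lower at day 10, and 0.388% were higher and 2.75% lower at day 8. With so few genes higher overall at day 8, none from this list says little about that day. The class is called mid/hindbrain below, as deposited: midbrain and isthmus genes other than Wnt1 and Spry1 measured under 1 CPM on both days.

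Cell by cell the picture was the same. Each cell was thinned to 10000 UMIs so that days could be compared, which left out 1 cell at day 10 and 2 at day 8. Otx2 was found in 1 of 1034 cells at day 10 and in 0 of 1744 cells at day 8, which allows a share of up to 0.172% of cells with an Otx2 UMI at this depth (3 counts of the total). In all other classes together Otx2 was found in 2.64% of cells at day 10 and 0.189% at day 8. A transcript of Hox groups 1 to 4 was found in 87.6% of class cells at day 10 (85.5 to 89.6%) and 91.9% at day 8 (90.5 to 93.1%). A cell can express a gene and yield no UMI, and before thinning an Otx2 transcript appeared in 0.386% of the class at day 10 (4 cells, 0.105 to 0.987%) and in 0.0573% at day 8 (1 cell). All of these also held a transcript of Hox groups 1 to 4, by the equal counts for Otx2 and Hox groups 1 to 4 together. Before thinning, Hox groups 1 to 4 were found in 97.5% of class cells at day 10 and 99.5% at day 8.

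More cells of the class held Hox genes of groups 3 to 5 at day 10 than at day 8, while its group 1 gene Hoxb1 was lower. Hoxb1, which in the embryo persists in rhombomere 4 of the hindbrain, measured 4.20 CPM at day 10 (3.49 to 5.02) and 33.9 CPM at day 8 (32.5 to 35.3), a level 8.06 times lower at day 10. The share of thinned cells with Hoxb1 was 4.26% at day 10 (3.11 to 5.67%) and 23.4% at day 8 (21.4 to 25.5%). Hoxa2 and Hoxb2, the group 2 genes of the anterior hindbrain, were less than 2-fold apart (Hoxb2 77.4 CPM at day 10, 110 CPM at day 8). The group 4 genes, whose anterior limits lie in the caudal hindbrain, were higher at day 10: Hoxc4 measured 31.6 CPM at day 10 and 2.41 CPM at day 8, and Hoxd4 25.8 and 5.11 CPM. Hoxa5, whose limit lies further caudally, measured 20.7 CPM at day 10 (19.1 to 22.4) and 1.53 CPM at day 8 (1.25 to 1.85). Genes of groups 6 to 9 stayed under 10 CPM on both days but did not move one way: Hoxb8 measured 9.23 CPM at day 10 and 4.49 CPM at day 8, Hoxb7 2.93 and 2.80 CPM, and Hoxb9 0.896 and 2.58 CPM.

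**Figure D1:**
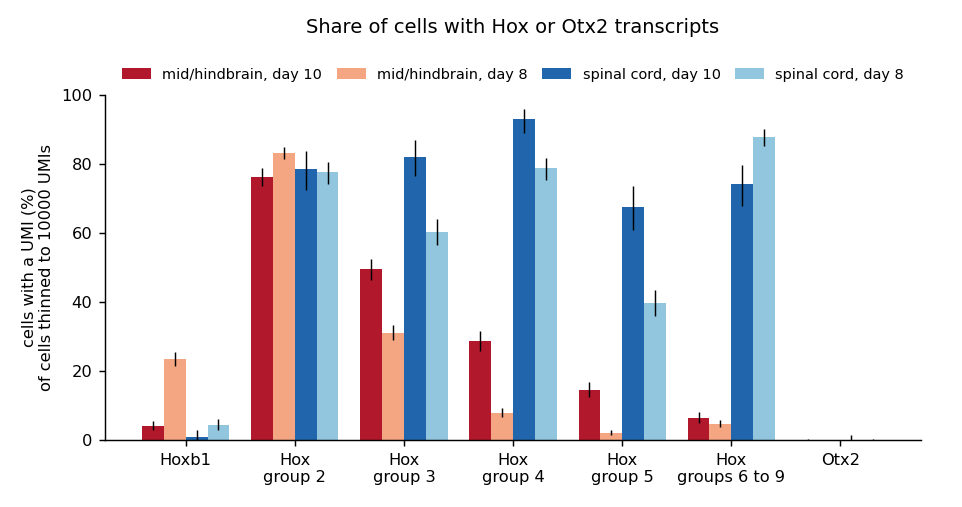
Share of cells with at least 1 UMI of the named gene or Hox group, in percent of cells thinned to 10000 UMIs, for mid/hindbrain and spinal cord cells of day 10 and day 8. Lines are exact 95% intervals. Mid/hindbrain cells with Hox group 4 made up 28.7% at day 10 and 7.91% at day 8, Hoxb1 went the other way, and Otx2 was near 0 in all 4.

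As a share of thinned cells, Hox group 3 was found in 49.4% of the class at day 10 (46.3 to 52.5%) and 31.2% at day 8 (29.0 to 33.4%). Hox group 4 was found in 28.7% at day 10 (26.0 to 31.6%) and 7.91% at day 8 (6.69 to 9.28%), and Hox group 5 in 14.5% at day 10 (12.4 to 16.8%) and 2.24% at day 8 (1.59 to 3.04%). Hox groups 6 to 9 together were found in 6.58% at day 10 and 4.82% at day 8. Cells with a UMI of Hox group 2 and none of groups 3 to 5 made up 30.9% at day 10 (28.1 to 33.9%) and 54.9% at day 8 (52.5 to 57.2%). These shares rest on missing UMIs, so they can include cells that express groups 3 to 5. The spinal cord class of the same libraries held Hox groups 6 to 9 in 74.0% of cells at day 10 and 87.7% at day 8. Median depth before thinning was 25997 UMIs in the class and 23254 UMIs in spinal cord cells at day 10. Pre-EMT cranial neural crest held Hox group 5 in 6.67% of cells at day 10 and 1.32% at day 8. The part of free RNA from other cells in these shares was not tested. Hoxb9 stood at 0.896 CPM in the class beside 104 CPM in spinal cord cells of day 10. Hoxa5 stood at 20.7 CPM in the class beside 88.2 CPM there.

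The day 10 cells with and without a Hox group 5 transcript differed in other genes. The 150 cells with one were set against the 884 without at equal depth, a split that used the group 5 genes only. Hoxa4 measured 86.0 CPM in cells with group 5 and 6.33 CPM in cells without, a ratio of 13.6 (9.85 to 18.9), and Hoxb8 measured 42.7 and 1.92 CPM. Rarb, a retinoic acid receptor that retinoic acid itself induces, measured 50.7 CPM with and 8.37 CPM without group 5. Sfrp2, a secreted Wnt modulator, measured 64.7 CPM with and 266 CPM without, and the orphan nuclear receptor gene Nr2f2 116 and 389 CPM. Fabp7 measured 951 CPM with and 1957 CPM without, and Crabp1, a retinoic acid carrier, 245 and 627 CPM. The cycle genes Pcna (403 and 379 CPM) and Top2a (685 and 757 CPM) differed little. For comparison, the day 10 spinal cord class measured 44.3 CPM of Sfrp2, 74.6 CPM of Nr2f2, 66.4 CPM of Rarb and 224 CPM of Crabp1. It measured 104 CPM of Hoxb9, where the class cells with group 5 had 2.00 CPM (3 UMIs).

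**Figure D2:**
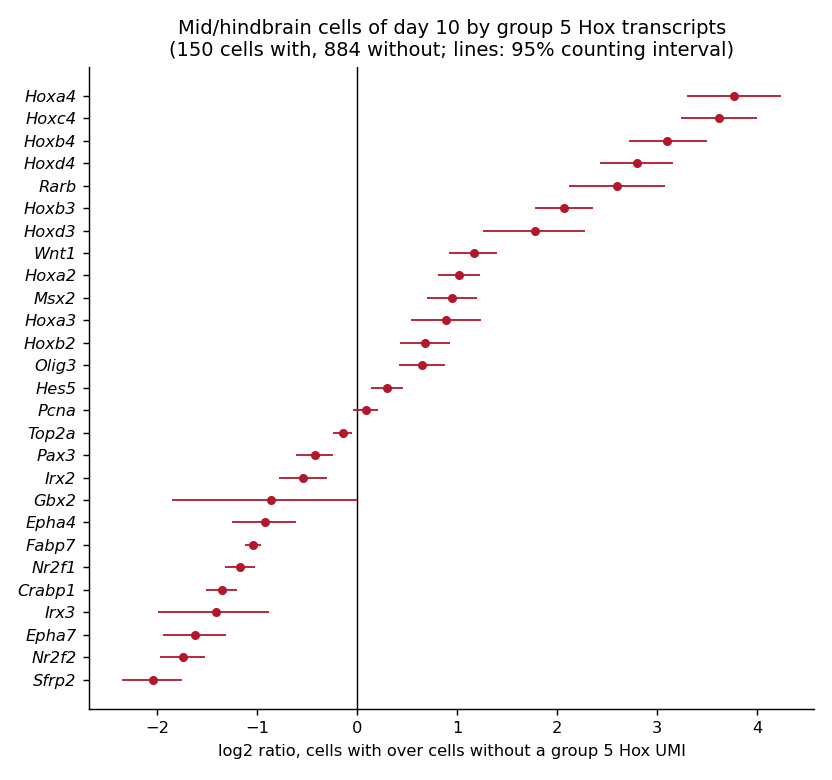
Log2 ratio of each gene in day 10 mid/hindbrain cells with a Hox group 5 UMI over those without (thinned to 10000 UMIs per cell, genes with at least 100 UMIs in all). Points are ratios and lines their exact 95% counting intervals. Group 3 and 4 Hox genes and Rarb lie to the right, and Sfrp2, Nr2f2, Epha7, Irx3 and Crabp1 to the left.

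The day 8 cells were split by Hoxb1 in the same way, into 408 cells with a Hoxb1 transcript and 1336 without. Rarb measured 0.490 CPM in cells with Hoxb1 and 4.19 CPM in cells without, and Hoxd4 1.23 and 5.76 CPM. Hoxb2 measured 136 CPM with and 104 CPM without Hoxb1. The roof plate signal gene Wnt1 measured 14.7 CPM with and 34.8 CPM without. Fabp7 differed little (1550 and 1342 CPM).

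Within the class, 121 of 5894 genes were at least 2-fold higher at day 10 than at day 8 and 43 were at least 2-fold lower, or 2.05% and 0.73%. A gene was counted when it was 2-fold apart after adding 1 CPM to each side and had at least 20 CPM at the higher day. The median log2 ratio over all 5894 genes was -0.01. The genes that stood farthest apart include transcription factors, 3 host genes of microRNAs, glycolytic enzymes and, on the lower side, early RNA regulators and retinoic acid carriers. The 15 highest and 15 lowest genes kept their sign in each of the 6 cell clusters that make up the class. All 15 of the highest were also above 0 in the other cells, in spinal cord cells and in proliferative progenitors, so this direction was shared.

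**Figure D3:**
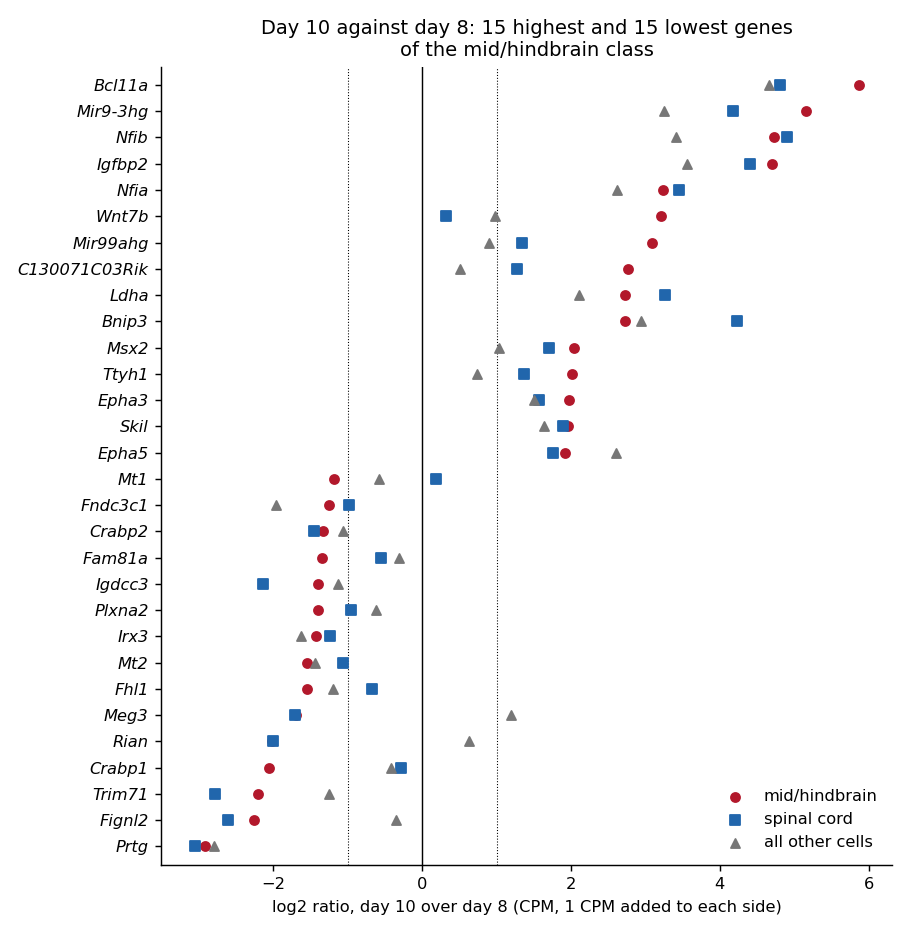
Log2 ratio of CPM at day 10 over day 8 for the 15 highest and 15 lowest genes of the mid/hindbrain class, in mid/hindbrain cells, spinal cord cells and all other cells. Dotted lines mark 2-fold. Wnt7b and Crabp1 are apart in mid/hindbrain (3.21 and -2.06) but not in spinal cord cells (0.33 and -0.29), and Meg3 and Rian are below 0 in both neural classes and above 0 in all other cells.

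Transcription factors were among the genes farthest apart. Bcl11a, a zinc finger transcription factor of neural development (chromosome 11, 24078056 to 24174123, mm10), measured 111 CPM at day 10 (107 to 115) and 0.914 CPM at day 8 (0.699 to 1.17). It was found in 57.7% of thinned class cells at day 10 (54.7 to 60.8%) and 0.917% at day 8 (0.525 to 1.49%). Bcl11a was not particular to the class: all other cells had 94.4 CPM at day 10 and 2.76 CPM at day 8. Nfib (chromosome 4, 82290173 to 82705750) measured 62.1 CPM at day 10 and 1.38 CPM at day 8, 45.1-fold apart (36.6 to 56.2) as a ratio of CPM with nothing added, as for all folds here. Its partner Nfia measured 71.2 CPM at day 10 and 6.65 CPM at day 8, and was found in 40.9% of cells at day 10 and 6.08% at day 8. Within neurons of the same library, dorsal interneuron 2 cells of day 10, Nfib was found in 2.76% of cells and Nfia in 5.80%. Spinal cord cells had 136 CPM of Nfib at day 10 and 3.58 CPM at day 8, and log2 ratios of 4.90 for Nfib and 3.45 for Nfia, against 4.73 and 3.24 in the class. In the class neither Bcl11a nor Nfib passed 1 CPM at day 6 or day 7.

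Of the 11 tested genes of the radial glia and glia list 5 were at least 2-fold higher at day 10, and none lower, with a median log2 ratio of 0.69. Beside Nfia and Nfib these were Ttyh1, a membrane protein of neural stem cells (78.2 CPM at day 10, 18.6 CPM at day 8), the glutamate transporter gene Slc1a3 (24.6 and 6.02 CPM) and the lipid carrier gene Apoe (66.9 and 27.7 CPM). Genes of mature astrocytes and oligodendrocyte precursors were near 0: Gfap measured 0.103 CPM at day 10 and 0.120 CPM at day 8, Aqp4 0.379 and 0.389 CPM, and Olig1 0.792 and 0.554 CPM. The progenitor gene Sox9, which works with Nfia in glial fate, measured 232 CPM at day 10 and 126 CPM at day 8, under 2-fold. Igfbp2, a secreted binding protein of insulin-like growth factors (chromosome 1, 72824503 to 72852474), measured 333 CPM at day 10 and 11.8 CPM at day 8. It was found in 85.6% of cells at day 10 and 10.7% at day 8. Its level in the class was 142 CPM at day 6 and 11.8 CPM at day 7, so day 6 was also high.

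Of the 15 highest genes 3 are long transcripts that contain microRNA hairpins, by their coordinates in GENCODE M21. Mir9-3hg measured 74.2 CPM at day 10 and 1.11 CPM at day 8. C130071C03Rik, which contains Mir9-2 in an exon, measured 190 CPM at day 10 and 27.0 CPM at day 8. Mir99ahg, which contains Mir99a and Mirlet7c-1, measured 114 CPM at day 10 and 12.6 CPM at day 8. All 3 were at 1.1 CPM or less in the class at days 6 and 7. In spinal cord cells Mir99ahg measured 170 CPM at day 10 and 66.6 CPM at day 8, a log2 ratio of 1.34 against 3.08 in the class. The mature microRNAs were not measured, and a host transcript does not give their level.

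The mature sequences (RefSeq) are shown because their seeds, bases 2 to 8 in capitals, are what the target sites below are matched to.
mmu-miR-9-5p: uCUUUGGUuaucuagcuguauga
mmu-miR-99a-5p: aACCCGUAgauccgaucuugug
mmu-let-7c-5p: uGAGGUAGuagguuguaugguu
The hairpin of miR-9 lies in both Mir9-2 (chromosome 13, 83738814 to 83738885, plus strand) and Mir9-3 (chromosome 7, 79505264 to 79505353, plus strand). The hairpins of Mir99a (chromosome 16, 77598936 to 77599000) and Mirlet7c-1 (77599657 to 77599750) are neighbours. The 3 seeds differ from each other.

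Among the 15 genes lowest at day 10 was Trim71, introduced above as an RNA that let-7 microRNAs bind. Trim71, an RNA-binding ubiquitin ligase of early embryos, measured 17.4 CPM at day 10 and 83.7 CPM at day 8, 4.82 times lower (4.40 to 5.29). Prtg, a cell surface protein of early neuroepithelium and the lowest gene of all (chromosome 9, 72806874 to 72917291), measured 30.1 CPM at day 10 and 235 CPM at day 8, 7.78 times lower (7.27 to 8.34). Fignl2 measured 10.3 CPM at day 10 and 53.3 CPM at day 8. Lin28a, the RNA-binding protein that blocks let-7 processing, measured 1.76 CPM at day 10 (1.31 to 2.31) and 33.4 CPM at day 8 (32.0 to 34.8), below the 50 CPM that the highest and lowest genes needed. Lin28a was found in 0.967% of thinned class cells at day 10 and 26.0% at day 8, while dorsal interneuron 2 cells held it in 21.3% at day 10 and 56.1% at day 8. Of the 8 tested genes of the heterochronic list, Lin28a and Trim71 were at least 2-fold lower and none was higher, with a median log2 ratio of -0.56. Lin28b was just short of 2-fold (29.1 CPM at day 10, 58.5 CPM at day 8), and Hmga2 was nearly level (126 and 123 CPM).

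The windows below are stretches of the 3′ untranslated regions (GENCODE M21) with the let-7 seed match in capitals, for the genes just described, including Lin28b and Hmga2, which were under 2-fold apart.
Trim71, first match: acattgcctaagtcCTACCTCag
Trim71, second match: gtgataatttctatCTACCTCaa
Prtg, first match: cctctgctgaatagCTACCTCag
Prtg, second match: cgctcctgtttataCTACCTCct
Lin28a, first match: cacagcctgttgaaCTACCTCat
Lin28a, second match: agatcgccacaaacCTACCTCac
Fignl2, first match: cccggctgcagcacCTACCTCac
Lin28b, first match: cccgggcgggaagtCTACCTCat
Hmga2, first match: ccgacattcaatttCTACCTCag
The seed match CTACCTC was present in 5 of the 13 lowest genes with an annotated 3′ untranslated region (Prtg, Fignl2, Trim71, Plxna2, Igdcc3) and in 2 of 12 of the highest genes. It was present in 10.1% of all 16436 such regions. In the heterochronic list it was present in 8 of 9 genes, of which only Lin28a and Trim71 were at least 2-fold lower at day 10. That list includes RNAs introduced above as bound by let-7, so its share cannot be set against the 10.1%. Its median region length was 2775 bases. The median region length was 901 bases for the lowest genes, 2738.5 for the highest and 1111 for all genes. The lowest genes with a match had mostly long regions: Trim71 5512 bases, Prtg 4989, Plxna2 4708, Fignl2 2271 and Igdcc3 538. Those without a match ranged from 141 bases (Mt2) to 2256 (Fam81a). The miR-9 match ACCAAAG was present in 4 of 13 lowest and 3 of 12 highest genes, and in 13.4% of all regions. The miR-99a match TACGGGT was present in 2 of 13 and 0 of 12, and in 1.33% of all. A match is a description of the letters, not evidence that the microRNA acts there.

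**Figure D4:**
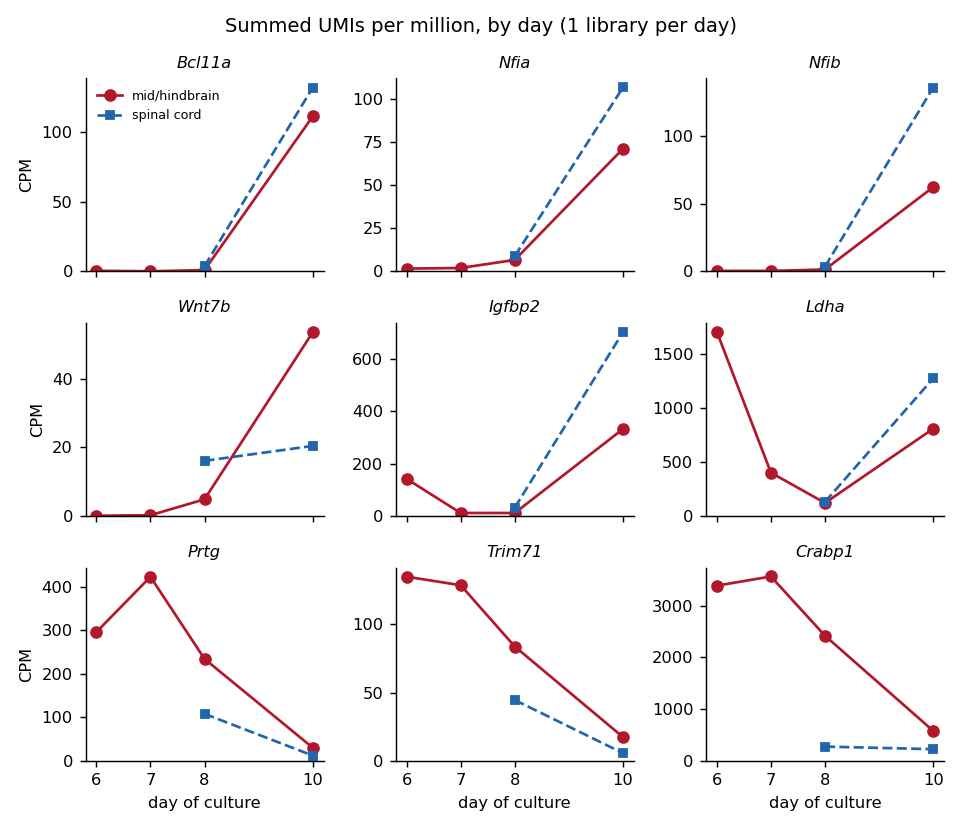
CPM of 9 genes in mid/hindbrain cells at days 6, 7, 8 and 10 and in spinal cord cells at days 8 and 10, with 1 library per day and linear axes from 0. Bcl11a, Nfia, Nfib and Wnt7b are low until day 8, Igfbp2 and Ldha are high at days 6 and 10 with a low between, and Prtg, Trim71 and Crabp1 are lowest at day 10.

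Glycolytic genes were higher at day 10. Of the 13 tested genes of the hypoxia and glycolysis list, 9 were at least 2-fold higher and none lower, with a median log2 ratio of 1.24. Ldha, lactate dehydrogenase A (chromosome 7, 46841475 to 46855627), measured 809 CPM at day 10 and 122 CPM at day 8, 6.65-fold higher (6.48 to 6.82). Bnip3, a mitochondrial protein induced by low oxygen, measured 70.1 CPM at day 10 and 9.80 CPM at day 8. Tpi1 (486 and 156 CPM), Eno1 (347 and 123 CPM) and Pfkl (93.3 and 30.4 CPM) followed. Gapdh was under 2-fold (2576 and 2170 CPM), and the glucose transporter gene Slc2a1 was lower (39.4 and 62.2 CPM) without reaching 2-fold. The same list had a median of 1.31 in the other cells and 1.89 in spinal cord cells. In the class Ldha had measured 1708 CPM at day 6 and 402 CPM at day 7, so day 8 was its lowest day.

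The 250 bases before the RefSeq start of Ldha and Bnip3 (GRCm38.p6) are shown because these 2 genes had the highest ratios in this list among those tested and both hold the letters ACGTG, the core bound by hypoxia-inducible factors, or its reverse complement CACGT, in capitals.
Ldha, chr7:46845554-46845803, plus strand: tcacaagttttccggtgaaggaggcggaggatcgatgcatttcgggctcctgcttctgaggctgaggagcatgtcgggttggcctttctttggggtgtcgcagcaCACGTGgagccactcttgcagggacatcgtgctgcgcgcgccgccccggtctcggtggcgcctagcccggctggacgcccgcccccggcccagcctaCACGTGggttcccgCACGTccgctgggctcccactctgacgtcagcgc
Bnip3, chr7:138909507-138909756, minus strand: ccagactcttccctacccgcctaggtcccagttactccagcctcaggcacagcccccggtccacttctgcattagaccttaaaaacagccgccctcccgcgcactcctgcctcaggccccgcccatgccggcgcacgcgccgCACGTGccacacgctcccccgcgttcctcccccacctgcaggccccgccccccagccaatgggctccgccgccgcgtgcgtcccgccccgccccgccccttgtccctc
The first holds 5 matches counting both strands and the second 2, where each CACGTG counts on both strands. In windows of 250 bases before and 50 after the start, either form was present in 9 of 17 promoters of the list and in 19.7% of all 27025 promoters. Of the genes at least 2-fold higher at day 10, Ldha, Bnip3, Pgk1 and P4ha1 held a match. Pfkl, Aldoa, Eno1, Tpi1 and Vegfa, also higher, held none. Slc2a1, Hk2, Gapdh, Ddit4 and Egln3 held a match without being called higher. Only 13 of the 18 list genes were tested for calls. Whether matches and day ratios are related was not tested. The list itself was chosen for hypoxia and glycolysis. Nothing about binding was measured.

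Several genes of the dorsal midline and of the BMP response were higher at day 10 as well. Of the 7 tested BMP target genes 4 were at least 2-fold higher (Id4, Smad7, Msx1, Msx2) and none lower, with a median log2 ratio of 1.07, against 0.21 in the other cells and 0.45 in spinal cord cells. Msx2, a homeobox gene that BMP signals induce, measured 74.6 CPM at day 10 and 17.3 CPM at day 8. Smad7, an inhibitor that BMP and TGF-beta signals induce, measured 105 and 28.9 CPM. Of the 5 tested roof plate genes 4 were higher: Msx1 (154.9 and 73.3 CPM), Msx2, Wnt1 (71.9 and 31.3 CPM) and the Wnt agonist gene Rspo1 (43.0 and 17.8 CPM). The definitive roof plate genes Lmx1a (0.689 and 0.180 CPM) and Gdf7 (0.138 and 0.0449 CPM) were near 0. Of the 11 tested dorsal progenitor genes 4 were higher (Zic4, Msx1, Msx2 and Olig3). Msx1 and Msx2 are members of the BMP target, roof plate and dorsal progenitor lists, so the counts of these lists overlap. Olig3, a factor of the dorsal progenitor domains, measured 95.2 CPM at day 10 and 26.9 CPM at day 8. Olig3 was found in 44.6% of class cells at day 10 and 15.9% at day 8. Atoh1, the factor of the most dorsal domain, measured 18.8 and 0.974 CPM and lay below the 20 CPM limit. The ventral genes Foxa2 and Nkx2-9 were at 0 and Olig2 was at 0.344 and 0.165 CPM.

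Several cell surface and signalling genes completed the extremes. The ephrin receptor genes Epha3 (87.0 CPM at day 10, 21.4 CPM at day 8) and Epha5 (50.01 and 12.5 CPM) and Skil, a repressor of TGF-beta signalling (83.0 and 20.7 CPM), were among the 15 highest. The homeobox gene Irx3 (47.4 and 129 CPM), the semaphorin receptor gene Plxna2 (21.8 and 59.3 CPM) and the metallothionein genes Mt1 (62.6 and 144 CPM) and Mt2 (19.5 and 58.6 CPM) were among the 15 lowest. Of the 10 tested Notch pathway genes 2 were higher, the receptor gene Notch1 (176 and 83.1 CPM) and its target Hey1 (30.9 and 8.33 CPM). Several of the named genes overlap a neighbour on the opposite strand in the annotation. Among them are Bcl11a, Nfia, Wnt7b, Ttyh1, Trim71, Irx3, Bnip3, Mt2 and Mir99ahg. Reads of overlapping genes could not be told apart where strand was not used.

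The Wnt ligand gene Wnt7b was at least 2-fold higher at day 10 in the class and under 2-fold apart in spinal cord cells. Wnt7b measured 53.5 CPM at day 10 and 4.88 CPM at day 8 in the class, 20.4 and 16.1 CPM in spinal cord cells, and 19.5 and 9.39 CPM in all other cells. It was found in 24.4% of class cells at day 10 and 3.50% at day 8, and in 16.3% and 13.8% of spinal cord cells. Dorsal progenitor 2/3 cells had more of it, at 125 CPM at day 10 and 13.1 CPM at day 8.

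Among the 13 genes of the retinoic acid list, Crabp1 and Crabp2, cytoplasmic carriers of retinoic acid, were at least 2-fold lower at day 10. Crabp1 (chromosome 9, 54764748 to 54773110) measured 579 CPM at day 10 and 2419 CPM at day 8, 4.18 times lower (4.11 to 4.25). It was at 3387 CPM at day 6 and 3564 CPM at day 7. Spinal cord cells had 224 CPM at day 10 and 275 CPM at day 8, so the class and spinal cord cells were nearer each other at day 10. Crabp2 measured 579 CPM at day 10 and 1457 CPM at day 8, and spinal cord cells had 352 and 964 CPM. Cyp26b1, which degrades retinoic acid, measured 31.4 CPM at day 10 and 21.1 CPM at day 8 in the class, and 3.75 and 0.358 CPM in spinal cord cells. The synthesis enzyme gene Aldh1a2 was at 0.413 and 0.434 CPM in the class and at 8.00 and 11.3 CPM in spinal cord cells.

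Neuronal genes were low in the class at both days. Of the 9 tested genes of the neuron list, Tubb3, Stmn2 and Stmn3 were at least 2-fold higher at day 10. Tubb3, neuronal beta-tubulin, measured 113 CPM at day 10 and 51.6 CPM at day 8 in the class, and 1227 and 540 CPM in the other cells. Dcx, a microtubule protein of new neurons, measured 11.8 and 1.69 CPM in the class and 378 and 115 CPM in the other cells. Dcx was found in 7.35% of thinned class cells at day 10 and 1.49% at day 8, and in 92.3% and 83.7% of dorsal interneuron 2 cells, whose median depth before thinning was 18687.5 and 20175 UMIs. The 15 neuron genes summed to 579 CPM at day 10 and 298 CPM at day 8 in the class, and to 6812 and 2653 CPM in the other cells. The part of free RNA from those cells in the class values was not tested. Markers of neural crest summed to 24.7 CPM at day 10 and 23.6 CPM at day 8 in the class (284 and 130 CPM in the other cells), and Foxd3 was at 0 on both days. Epithelial markers summed to 8.61 and 9.14 CPM, mesenchymal ones to 12.2 and 9.03 CPM, and those of endothelium and blood to 2.41 and 1.54 CPM.

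Cell cycle genes were level between days within the class, and were higher than in the other cells at day 10. Of the 16 genes each of the S phase list and of the G2 and mitosis list, none was 2-fold apart between the days, with median log2 ratios of -0.30 and 0.05. The same medians were -0.25 and -0.16 in spinal cord cells, and -1.10 and -1.01 in all other cells together. Against the other cells of day 10, 296 of 6365 genes were at least 2-fold higher in the class (4.65%) and 515 at least 2-fold lower (8.09%). Against the other cells of day 8, 23 of 5929 were higher (0.388%) and 163 lower (2.75%). At day 10 these included 13 of 16 S phase and 16 of 16 mitosis genes as higher, and at day 8 none of either. Top2a measured 863 CPM in the class and 349 CPM in the other cells at day 10, and 731 and 674 CPM at day 8. Mki67 was found in 67.7% of class cells and 23.3% of other cells at day 10, and in 70.8% and 54.8% at day 8. The level of Top2a in the other cells thus differed more between days than that in the class. The make-up of the other cells differed too. Dorsal interneuron 1, 2 and 3 cells were 11.8%, 10.2% and 9.98% of the library at day 10. At day 8 they were 1.02%, 2.94% and 4.20%. The part of this make-up in the comparisons with the other cells was not tested. Ccnd1, the G1 cyclin, was the one gene of the cycle brake and G1 list that was 2-fold apart between days, at 117 CPM at day 10 and 259 CPM at day 8.

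**Figure D5:**
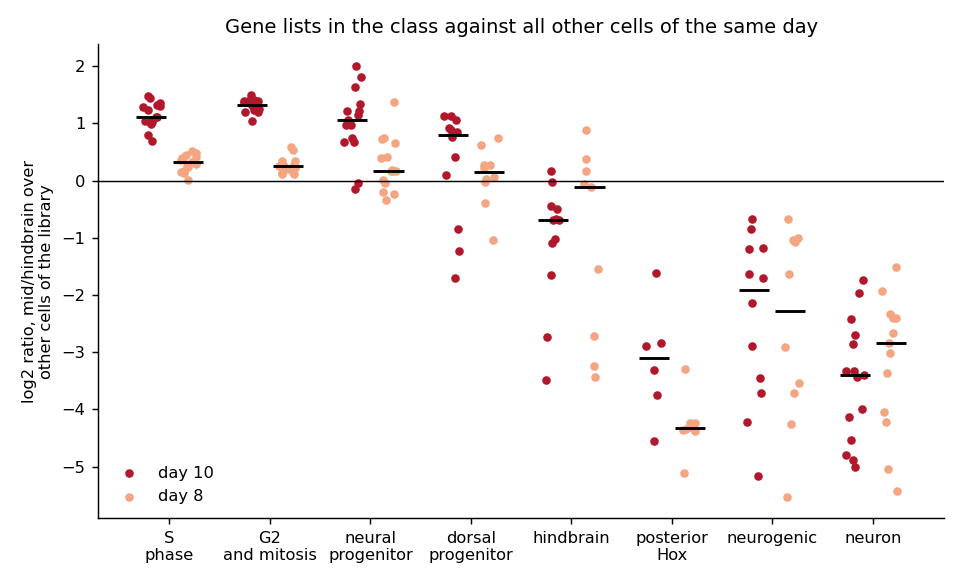
Log2 ratio of CPM in the class over all other cells of the same library for genes of 8 lists with at least 20 CPM on either side, at day 10 (dark) and day 8 (pale). Each point is 1 gene and bars are medians, which for G2 and mitosis were 1.32 at day 10 and 0.25 at day 8. Neuron genes were below 0 at both days, and posterior Hox genes too.

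Cycle genes were prominent among the leading genes of the 6 deposited clusters of the class. At day 10 cluster 0 was led by a mixed set (Dancr, Snhg20 and Gadd45g, with Mcm4 and Mcm2 among the first 10) and was low in Top2a, which stood at a log2 ratio of -3.98 to the rest of the class. Cluster 1 was led by Ccne2, Dscc1 and Ccne1, genes of the start of replication, clusters 4 and 3 by mitotic genes such as Aurka and Ube2c, cluster 6 by linker histones and cluster 7 by Cdc20 and Cdkn3. Their shares of the class were close between days, the largest being cluster 0 with 31.8% at day 10 (29.0 to 34.7%) and 28.5% at day 8 (26.4 to 30.6%). Cells with Hox group 5 at day 10 were 59 of 207 in cluster 1 (28.5%, 22.5 to 35.2%) and 2 of 118 in cluster 6 (1.69%, 0.206 to 5.99%). At day 8 cluster 6 had the highest share of cells with Hoxb1 (80 of 226, or 35.4%, 29.2 to 42.0%), and cluster 1 the lowest (59 of 305, or 19.3%, 15.1 to 24.2%).

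The 15 genes highest against the other cells were ranked by the log2 ratio that lay nearer to 0 of the 2 libraries. Sfrp2 led, with 242 CPM in the class and 45.0 CPM in the other cells at day 10, and 316 and 88.8 CPM at day 8. Epha7, an ephrin receptor, measured 167 against 57.1 CPM at day 10 and 200 against 67.7 CPM at day 8. Shroom3, which drives apical constriction of the neural tube wall, measured 62.0 against 17.6 CPM and 58.3 against 28.6 CPM. The homeobox genes Irx1 and Irx2, the zinc finger gene Zic2, Sox9, Ednrb, Nr2f2 and Fabp7 were also among them. The DNA repair gene Brca1 and the polymerase subunit gene Pold2 also belong to the 15. The 15 lowest were genes of neurons and their precursors, from Nhlh2 (10.5 against 415 CPM at day 10) and Stmn2 (36.3 against 1196 CPM) to Insm1 and Dll3. The paired neurofilament genes Nefl and Nefm, also among the lowest, overlap on opposite strands in the annotation, and whether the counting used strand is not given in the sources used here.

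The spinal cord class was the most similar to the mid/hindbrain class at both days, with a correlation of log2 profiles of 0.979 at day 10 and 0.975 at day 8 over 8085 and 7298 genes that share 1 library. Against spinal cord cells 45 of 5910 genes were at least 2-fold higher in the class at day 10 (0.761%) and 65 lower (1.1%), and 61 and 52 of 5799 at day 8 (1.05% and 0.897%). The next most similar classes had more genes apart. Against proliferative neural progenitors of day 10 the class had 2.13% of genes higher and 5.29% lower. Against pre-EMT cranial neural crest it had 3.45% higher and 4.26% lower at day 10, and 0.871% and 1.79% at day 8. Against pre-EMT vagal/trunk neural crest of day 8 it had 1.01% higher and 2.27% lower. Between the class and spinal cord cells the genes apart included those of axial position. Epha7 measured 167 CPM in the class and 24.2 CPM in spinal cord cells at day 10, and 200 and 20.3 CPM at day 8. Nr2f2 measured 352 and 74.6 CPM at day 10, and 421 and 168 CPM at day 8. Sfrp2 measured 242 and 44.3 CPM at day 10, and 316 and 68.5 CPM at day 8. On the other side were Hoxb9 (0.896 and 104 CPM at day 10, 2.58 and 176 CPM at day 8) and Hoxb8 (9.23 and 112 CPM at day 10, 4.49 and 126 CPM at day 8).

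The day 10 over day 8 calls of the class and of the spinal cord class overlapped. Within spinal cord cells 2.39% of 5889 tested genes were at least 2-fold higher at day 10 and 0.56% lower. The same shares were 3.17% and 0.973% in proliferative neural progenitors, and 5.97% and 2.29% in all other cells together. Among the 5655 genes tested in both, 71 were at least 2-fold higher in both, which is 65.7% of the class's 108 and 65.1% of the spinal cord's 109. There were 14 lower in both, or 48.3% of 29 and 51.9% of 27. Both classes came from the same 2 libraries, and the part of a library difference in these shares was not tested.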

How the data were processed

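Single cells of pooled organoids were profiled with the 10x Genomics 3′ v3 chemistry, 1 library per day. UMI counts per gene and cell were deposited as a matrix for days 6 to 10, and the submitters' processing notes name Cell Ranger 3.1 and the build mm10. The authors deposited, per the file headers, the percentage of mitochondrial UMIs, the class and the cluster of each cell. The deposited table has 11981 cells and 21062 genes, and its cells had at least 3002 genes and at most 9.97% mitochondrial UMIs. How doublets were treated is not given in the sources used here, and no doublet caller was run; leaving out the 5% of cells with the most UMIs was tried. The count of whole-series libraries is 6, of which the 4 in this table were read.

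UMI counts were summed per class and day and divided by the class total (CPM). Log2 ratios have 1 CPM added to each side, and fold changes are ratios of CPM without it. A gene was tested when the higher side had at least 20 CPM, and was called when at least 2-fold apart. Genes were named as the 15 highest and 15 lowest with at least 50 CPM, plus members of 29 lists (349 genes, 341 measured). Cell shares used cells thinned to 10000 UMIs. The class, the lists and the rules were chosen with earlier results of these data known. Python 3.11.15, numpy 2.4.6, scipy 1.17.1, pandas 2.3.3, R 4.3.3 and edgeR 4.0.16 (scaling factors only) were used, and the ratio code was tested on simulated data. Seed matches were read from GENCODE M21 transcripts, microRNAs and promoters from RefSeq (GRCm38.p6). Some items are not reported here.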

Additional observations from a re-analysis of the deposited data

Results flagged for a closer look

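The day 10 over day 8 ratio of 2 neighbouring non-coding RNAs went opposite ways in the class and in the other cells, and the difference was not tested, as there is 1 library per day. Rian had a log2 ratio of -2.02 in the class (12.99 CPM at day 10, 55.7 CPM at day 8) and 0.63 in all other cells (144 and 93.2 CPM). Meg3 had -1.69 in the class (60.0 and 196 CPM) and 1.20 in all other cells (1046 and 456 CPM). Both lie in the imprinted Dlk1-Dio3 region of chromosome 12 (Meg3 109541001 to 109571726, Rian 109603940 to 109661716), where small RNA genes share their strand. Spinal cord cells had -2.004 for Rian and -1.71 for Meg3, and proliferative progenitors -0.42 and -0.24. Dorsal interneuron 3 cells had 3349 CPM of Meg3 at day 10 and 2375 CPM at day 8. These cells were 9.98% of the library at day 10 and 4.20% at day 8. In the class Meg3 measured 852 CPM at day 6 and 242 CPM at day 7.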

How the results depend on the processing

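No paired analysis was possible because each day has 1 library and no comparison comes from a test. The 30 genes named for the day 10 over day 8 ratio kept their sign and stayed at least 2-fold apart under all 8 settings tried (240 values), 1 of which, equal weight to each of the 6 clusters, was chosen after seeing the data. With 100 CPM required, 30 genes were higher at day 10 and 11 lower. With no limit, 338 were higher and 128 lower. Against the other cells, 100 CPM gave 89 higher and 120 lower at day 10, and 3 and 37 at day 8. No limit gave 1452 lower at day 10, and 70 higher and 553 lower at day 8. Equal weight to each other class gave 127 higher at day 10 and 284 lower at day 8. These counts follow from which genes are tested or how the other cells are averaged. Scaling by TMM or RLE raised the class over other cells at day 10 by 0.12 or 0.13 on the log2 scale. At 5000 UMIs per cell Otx2 was found in 0% of cells at day 10, and Hox groups 1 to 4 in 70.0% at day 10 and 72.2% at day 8. Without thinning Hox groups 1 to 4 were found in 97.5% at day 10 and 99.5% at day 8, and Otx2 together with them in 0.386% at day 10. Shares of cells with a gene are thus floors set by depth. With 1 library per day, neither culture nor library variation was measured.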

Other observations

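The genes below ranked among the highest in the class by variance over mean of UMIs per cell. That measure was not adjusted for the mean level, with which it can rise. At 10000 UMIs per cell the Fano factor (variance over mean) of Crabp1 was 13.3 at day 10, with a mean of 5.72 UMIs and the gene found in 79.8% of cells, and 11.3 at day 8, with a mean of 24.2 UMIs and 99.7% of cells. The median Fano factor was 1.11 at day 10 over 2939 genes and 1.08 at day 8 over 2942 genes. Fabp7 had 12.6 at day 10, and the linker histone gene Hist1h1b 13.1 at day 10 and 9.84 at day 8. Gm42418 (29.5 at day 10, 9.70 at day 8) and Malat1 (21.9 and 13.5) had the highest values of all 10 genes named at day 10.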
